A study of Caenorhabditis elegans with 58 samples.

Results

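The zig genes (zwei Ig domain) of C. elegans encode small proteins built from a pair of immunoglobulin domains, most of which are predicted to be secreted. The genes described here are zig-1 to zig-8, chosen by name from the count files. All 8 of them, of 45410 entries in each file, had counts well above 0, so none was left out. Raw counts over the 58 libraries ran from 45 to 1501 for zig-1, from 28 to 1307 for zig-3 and from 49 to 1642 for zig-7. Counts were lowest for zig-4, with 7 to 198 per library and 2 libraries under 10, and for zig-8, with 8 to 249 and 1 library under 10.

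Axons of the worm are first guided to their place in the embryo and must then be held there while the animal grows and moves. Several zig genes are expressed in PVT, a single neuron at the posterior end of the ventral midline, and zig-3 and zig-4 are known for keeping axons such as those of the PVQ neurons on their own side of that midline. zig-5 and zig-8 are known to act together with sax-7, the worm homologue of the adhesion molecule L1CAM, in keeping the nervous system in shape. The PVQ axons are also those whose position was scored in the study from which these libraries come.

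The libraries were made from whole animals at the L4 larval stage, so RNA of PVT or any other zig-expressing cell is diluted by that of all tissues, and fewer expressing cells cannot be told apart from less RNA per cell. In the parental condition libraries, wild type self-progeny came from mothers on day 1 of adulthood (F1-1DOA), from mothers on day 4 of adulthood (F1-4DOA), from a generation kept at 25 °C (F1-25C), or from the generation put back at 20 °C after 25 °C (F1-back). All groups other than those named 25C were grown at 20 °C. The same 1DOA, 4DOA and 25C conditions were measured in set-2(zr1208), a single CRISPR line with a substitution in the catalytic site of the H3K4 methyltransferase SET-2. Wild type cross-progeny had a young father and either a young mother (1DOAx1DOA) or a day 4 mother (1DOAx4DOA). Per the methods, cross-progeny were recognised by oyIs14, a sra-6 promoter GFP transgene brought in by the males, so the transgene and the cross cannot be told apart in comparisons with self-progeny. Each of these 9 groups had 4 libraries from separate experiments.

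The outcross libraries came from lines founded by crossing wild type males with hermaphrodites. WT-ctrl lines had wild type mothers, while WT-des (wild type) and MUT-des (homozygous mutant) lines both descended from set-2(zr1208) mothers, and each was sampled in generations F3 and F5. Per the methods, the sequenced descendants came from a single cross and the founding hermaphrodites carried oyIs14. WT-ctrl lines had other mothers, so in comparisons with WT-ctrl the cross and the descent cannot be told apart. Each of these 6 groups had 3 or 4 lines after 1 library, WT-ctrl F5 replicate 2, was set aside because it held 1271186 counts. The other 21 outcross libraries held 14071245 to 25733464 counts and the 36 parental condition libraries 2819460 to 31543107. Markers fixed for neurons and muscle were present in every group. The summed pan-neuronal level ran from 272.3 to 721.6 CPM, although 6 of its 19 genes were listed at 0 under their gene name in all libraries.

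Levels are given as CPM, counts per 1000000 of a library's total after scaling with TMM factors. A gene was called changed when its Benjamini-Hochberg adjusted p in edgeR's quasi-likelihood test over all genes was below 0.05 and its log2 fold change was beyond 1 in either direction. Beside the members' count, the share of all tested genes called by the same rule is given.

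Set against exonic length in the WBcel235 annotation, the levels of the 8 genes in F1-1DOA formed a graded order. Per kilobase, zig-7 was at 51.7 CPM ± 5.93 (SD, n = 4), zig-1 at 46.9 ± 5.87, zig-3 at 30.8 ± 7.05 and zig-6 at 23.04 ± 1.299. The others were lower, with zig-2 at 10.8 ± 0.606, zig-8 at 5.03 ± 0.328, zig-5 at 4.05 ± 0.399 and zig-4 at 2.93 ± 1.36 CPM per kilobase. zig-2, zig-3, zig-4 and zig-6 lie on chromosome X, zig-1 and zig-7 on chromosome I, and zig-5 and zig-8 on chromosome III. zig-4 and zig-3 are adjacent coding genes on the same strand, with zig-4 first. In the same annotation zig-1 overlaps ensa-1, zig-6 overlaps T03G11.15 and zig-8 overlaps bre-2. Strand is not retained by the kit, so reads from the shared stretches of these 3 genes are uncertain.

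zig-3 fell at 25 °C and was the only one of the 8 genes called in that comparison. Its CPM values in the 4 F1-1DOA libraries were 21.11, 28.57, 30.97 and 37.48. In the 4 F1-25C libraries they were 3.25, 3.91, 7.24 and 4.22. Every 25 °C library lay below every control library. The log2 fold change was -2.66 ± 0.28 (SE), a level 6.32-fold lower, with an edgeR adjusted p of 6.06e-08. In this comparison 4.99% of the 15306 genes tested were called, against 1 of 8 members. zig-4, its neighbour with which it shares the maintenance role, had a log2 fold change of 0.09 ± 0.37 and an adjusted p of 0.951. The remaining members ran from -0.36 for zig-6 (adjusted p = 0.166) to 0.15 for zig-2 (adjusted p = 0.728), and the median over the 8 genes was 0.02 against 0.00 over all genes.

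**Figure D1:**
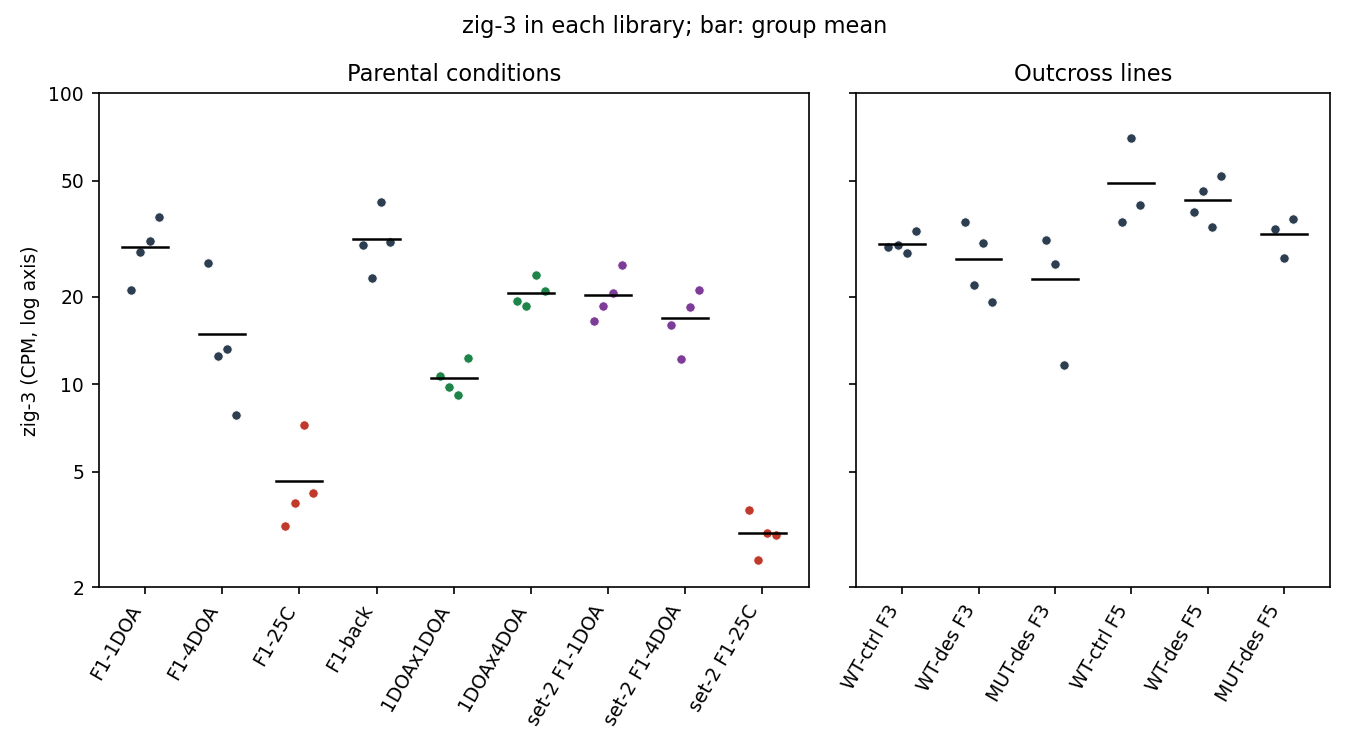
CPM of zig-3 on a log axis in each of the 36 parental condition libraries (left) and the 21 outcross libraries (right), by group, with a bar at each group mean and red for groups at 25 °C. The F1-25C libraries lie between 3.25 and 7.24 CPM and the set-2 F1-25C libraries between 2.49 and 3.70, below all other libraries.

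After the return to 20 °C the level of zig-3 was higher again. The 4 F1-back libraries held 30.0, 23.3, 42.3 and 30.9 CPM of zig-3, 3 of them within the F1-1DOA range and 1 above it. None of them overlapped with F1-25C, and the log2 fold change between these groups was 2.76 ± 0.28 (adjusted p = 1.59e-08). That made 1 of 8 members called, with 8.23% of all genes called. Against F1-1DOA the difference was 0.10 ± 0.25, with a 95% interval from -0.41 to 0.61 and an adjusted p of 0.92. In F1-back against F1-1DOA 0.549% of genes and none of the members were called, and none of the members passed an unadjusted p of 0.05 in edgeR. zig-2 and zig-5 were lower in F1-back than in F1-25C with no overlap, by -0.38 and -0.40 on the log2 scale, but their adjusted p values were 0.13 and 0.111. The share of all genes without overlap was not counted. An unadjusted p under 0.05 in edgeR was found there for 3 of the 8 members, beside 4917 of 15306 genes.

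The same fall of zig-3 was measured in the set-2 mutant. The set-2 F1-1DOA libraries held 16.5, 18.6, 20.6 and 25.6 CPM. The set-2 F1-25C libraries held 3.70, 2.49, 3.08 and 3.03 CPM, so the groups again did not overlap. The log2 fold change was -2.72 ± 0.28 (adjusted p = 6.81e-08), a level 6.59-fold lower, and zig-3 was again 1 of 8 members called beside 2.97% of all genes. The difference between the 2 genotypes in the response to 25 °C was -0.06 on the log2 scale, with a 95% interval from -0.82 to 0.70 (interaction term, adjusted p = 0.969). The interaction called 2.68% of genes and none of the members, and none had an unadjusted p under 0.05.

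Genes of the molting cycle, whose transcripts rise and fall within each larval stage, were read beside zig-3 at 25 °C. Of the 13 tested, 1 was called lower, beside 0.928% of all genes. This was mlt-10, which fell by 1.39 on the log2 scale (adjusted p = 0.0332) and the list's median was -0.60. The summed CPM of the 14 listed genes ran from 1582 to 3343 over the F1-1DOA libraries and from 768.1 to 1977 over those of F1-25C. These ranges overlapped. The sum was 1910 to 3087 after the return to 20 °C, and nhr-23 was listed at 0 throughout. In set-2 the sums were 1013 to 2489 on day 1 and, at 25 °C, 840.8 to 2013, where none of the 13 genes was called and the median was -0.54. Its part in the zig-3 values was not tested. The pan-neuronal sum was 425.2 to 458.9 CPM in F1-1DOA, and the F1-25C libraries spanned 394 to 530.1 CPM, with none of 13 tested genes called and a median of 0.03.

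**Figure D2:**
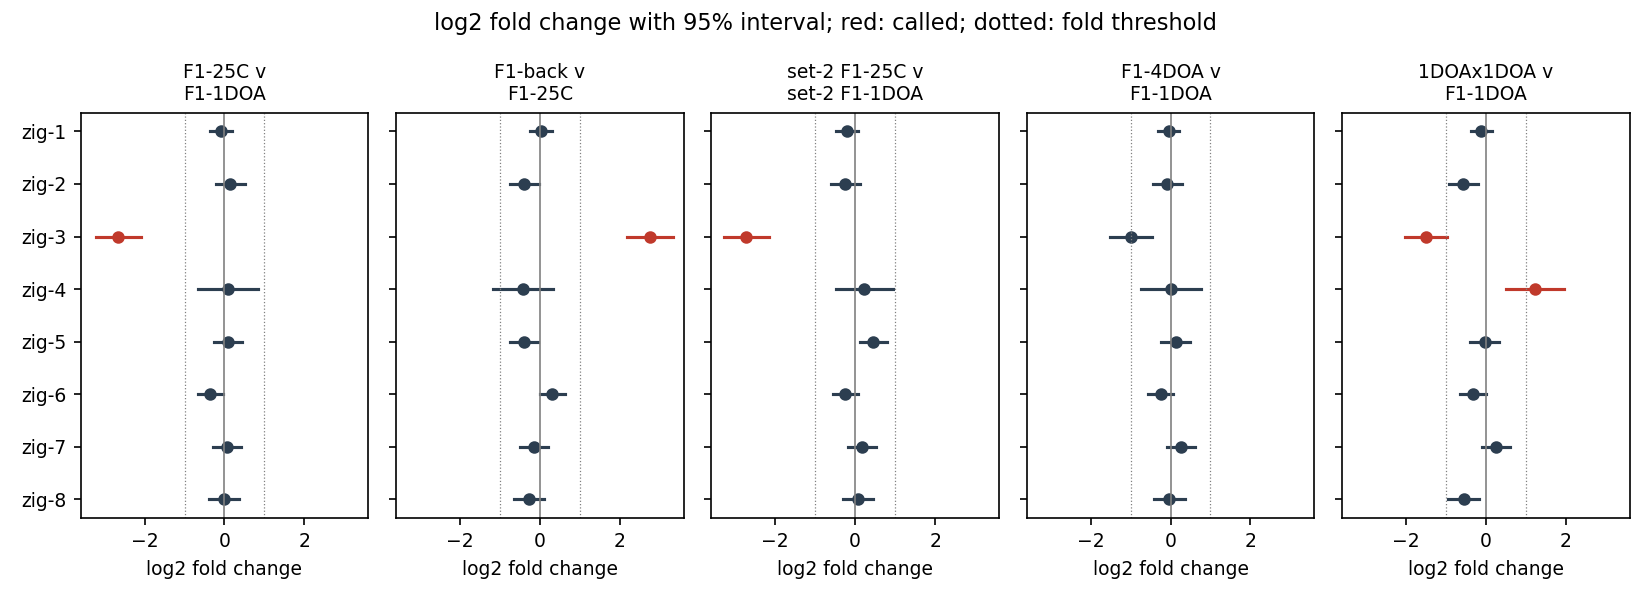
log2 fold change (point) and 95% interval (line) of each of the 8 genes in 5 comparisons, with called genes in red and dotted lines at the fold threshold. zig-3 stands apart at -2.66, 2.76 and -2.72 in the 3 temperature comparisons, and zig-3 and zig-4 lie on opposite sides of 0 in the young cross.

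Progeny of day 4 mothers had a lower level of zig-3 in 3 of the 4 libraries. The F1-4DOA libraries held 26.2, 12.5, 13.2 and 7.83 CPM. The first of these lay within the F1-1DOA range of 21.1 to 37.5, and the other 3 lay below it. The log2 fold change was -0.99 ± 0.26 (adjusted p = 0.0225), just inside the fold threshold, so none of the members was called beside 2.44% of all genes. By the adjusted p alone 1 of 8 members, zig-3, passed beside 3.59% of genes. DESeq2 called zig-3 (-1.01, adjusted p = 0.00692), and no other member had an unadjusted p under 0.05 in edgeR. Leaving out F1-4DOA replicate 1 took the log2 fold change to -1.40 (adjusted p = 0.00192), whereas the adjusted p was 0.0946 without F1-1DOA replicate 4, 0.0837 without F1-4DOA replicate 2, 0.0871 without F1-4DOA replicate 3 and 0.175 in the fit of these 2 groups alone. The summed molting list spanned 541.9 to 2975 CPM in F1-4DOA.

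Both conditions were also set against each other. zig-3 was lower in F1-25C than in F1-4DOA, with no overlap, by -1.67 ± 0.27 on the log2 scale (adjusted p = 0.000254), which made 1 of 8 members called beside 1.86% of all genes.

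In set-2 no maternal age difference of zig-3 was called. The set-2 F1-4DOA libraries held 15.9, 12.2, 18.4 and 21 CPM, overlapping with set-2 F1-1DOA. Replicate 3, at 18.4 CPM, had 53 counts of zig-3 and the lowest total of the parental condition libraries, 2819460. The log2 fold change was -0.28 ± 0.26 (adjusted p = 0.446), and none of the members was called beside 5.98% of all genes, with none under an unadjusted p of 0.05. The genotypes' responses to maternal age differed by 0.71 on the log2 scale, with a 95% interval from -0.02 to 1.45 (adjusted p = 0.249). That interaction called 1.22% of genes and none of the members, and none had an unadjusted p under 0.05. Without F1-4DOA replicate 1, however, it rose to 1.13 and was called (adjusted p = 0.0486). The summed molting list was at 1013 to 2489 CPM in set-2 F1-1DOA and at 2019 to 4699 CPM in set-2 F1-4DOA. Its median was 1.05 between them and 0.80 in the interaction, and its part in the zig-3 values was not tested.

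The cross-progeny differed from self-progeny in zig-3, and their maternal age difference ran the other way. The 1DOAx1DOA libraries held 10.7, 9.79, 9.17 and 12.3 CPM of zig-3, all below the F1-1DOA range. The log2 fold change against F1-1DOA was -1.49 ± 0.26 (adjusted p = 0.000913), a level 2.82-fold lower. The 1DOAx4DOA libraries held 19.3, 18.6, 23.7 and 20.8 CPM, all above those of 1DOAx1DOA. This difference of 0.97 ± 0.26 was not called (adjusted p = 0.214), in a comparison in which only 0.0653% of all genes and none of the members were called, zig-3 alone having an unadjusted p under 0.05. Against F1-4DOA, 1DOAx4DOA was 0.47 ± 0.26 higher in zig-3 (adjusted p = 0.295), with none of the members called beside 2.94% of all genes and zig-4 alone under an unadjusted p of 0.05.

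The difference between these maternal age changes was tested after the values had been seen. In cross-progeny the change of zig-3 exceeded that in self-progeny by 1.97 on the log2 scale, with a 95% interval from 1.22 to 2.71 (adjusted p = 0.0163). zig-3 was 1 of 8 members called in this interaction beside 0.581% of all genes. The F1-1DOA libraries, the highest of the 4 groups, enter both this test and the comparisons above. Markers of other tissues were read beside these values. In 1DOAx1DOA the summed germline list was at 2176 to 2455 CPM, above the 1012 to 1768 CPM of F1-1DOA without overlap. Its median log2 fold change was 0.71, and 1 of its 7 tested genes was called higher, beside 1.40% of all genes. An unadjusted p under 0.05 was found for 6 of the 7, beside 3509 of 15306 genes. The hypodermis list had a median of -0.81 and the molting list one of -0.59 in the same comparison, with none of their genes called. The molting sum was at 681.9 to 2075 CPM in 1DOAx1DOA and 1816 to 2473 CPM in 1DOAx4DOA, with a list median of 0.52 between them. The germline sum was 1912 to 2408 CPM in 1DOAx4DOA. The part of these lists in the zig-3 values was not tested. Of the 9 listed male genes her-1, xol-1 and mab-23 were at 0 throughout, and the sum of the list was 6.93 to 9.30 CPM in 1DOAx1DOA and 7.43 to 11.6 CPM in 1DOAx4DOA beside 7.36 to 10.9 CPM in F1-1DOA and overlapped between these groups.

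**Figure D3:**
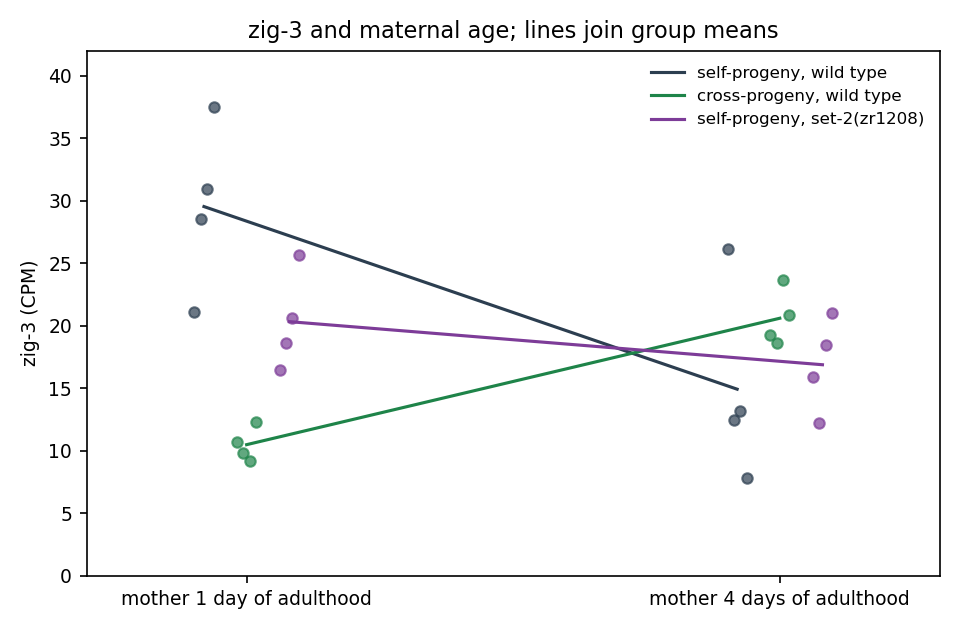
CPM of zig-3 in each library by the age of the mother, for wild type self-progeny, wild type cross-progeny and set-2(zr1208) self-progeny, with lines joining the group means. The means go from 29.5 to 14.9 in wild type self-progeny, from 10.5 to 20.6 in cross-progeny and from 20.3 to 16.9 in set-2.

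Over the 9 groups the mean level of zig-3 spanned 10.3-fold. In order, the means were 31.6 CPM in F1-back, 29.5 in F1-1DOA, 20.6 in 1DOAx4DOA, 20.3 in set-2 F1-1DOA, 16.9 in set-2 F1-4DOA, 14.9 in F1-4DOA, 10.5 in 1DOAx1DOA, 4.66 in F1-25C and 3.07 in set-2 F1-25C. Neighbours in this order overlapped in their ranges, except that both 25 °C groups lay below 1DOAx1DOA. Between the genotypes zig-3 was not called. In set-2 F1-1DOA it was -0.54 ± 0.25 from F1-1DOA (adjusted p = 0.142), and in set-2 F1-25C it was -0.60 ± 0.29 from F1-25C (adjusted p = 0.14).

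zig-4 was the other member that was called. In 1DOAx1DOA its values were 8.24, 5.88, 10.01 and 5.28 CPM, and in F1-1DOA they were 1.96, 1.84, 4.82 and 3.55 CPM. The groups did not overlap, and the log2 fold change was 1.23 ± 0.36 (adjusted p = 0.0412). With zig-3, which went the other way, that made 2 of 8 members called beside 2.33% of all genes. The call of zig-4 was lost without any 1 of 5 libraries (adjusted p 0.0633 to 0.154 without F1-1DOA replicates 1, 2 or 4 or 1DOAx1DOA replicates 1 or 3). In 1DOAx4DOA its values were 5.59, 5.69, 6.81 and 3.62 CPM, which was 0.80 ± 0.36 above F1-4DOA (adjusted p = 0.199). The means of zig-4 over the 9 groups ran from 2.44 CPM in F1-back to 7.35 in 1DOAx1DOA, and its replicates varied more than those of the other genes in F1-1DOA, with a coefficient of variation of 46.6% at these low counts.

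**Figure D4:**
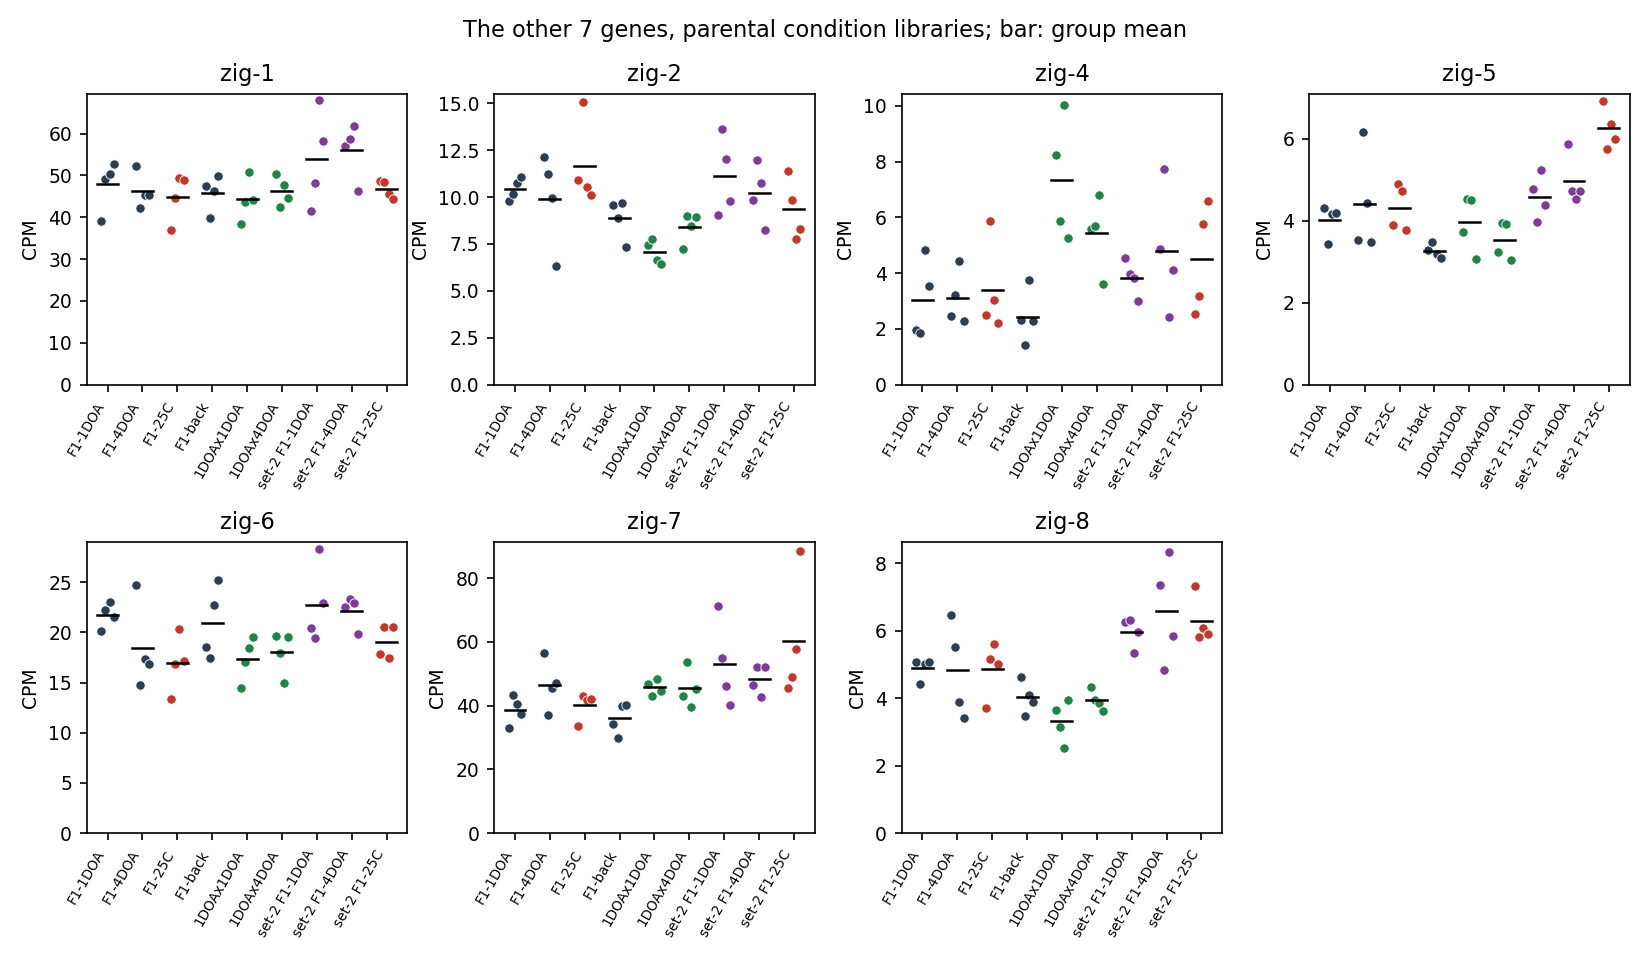
CPM of the other 7 genes in the 36 parental condition libraries, by group, with a bar at each group mean and vertical axes that start at 0. zig-4 is highest in 1DOAx1DOA with a mean of 7.35, and zig-5 is highest in set-2 F1-25C with a mean of 6.25.

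zig-5 and zig-7 were higher in the mutant at 25 °C, below the fold threshold. zig-5 was at 6.91, 5.75, 6.35 and 5.98 CPM in set-2 F1-25C and at 3.89, 4.89, 4.73 and 3.77 CPM in F1-25C. Its log2 fold change was 0.54 ± 0.17 (adjusted p = 0.0247). zig-7 was at 45.4, 49.1, 57.7 and 88.4 CPM against 33.7, 42.9, 41.7 and 42.2 CPM, a log2 fold change of 0.58 ± 0.17 (adjusted p = 0.0174). Neither pair of groups overlapped, nor did those of zig-8 (0.37 ± 0.18, unadjusted p = 0.0505 in edgeR). The share of all genes without overlap was not counted. By the adjusted p alone 2 of 8 members, zig-5 and zig-7, passed beside 18.2% of all genes. With the fold threshold none of the members passed beside 6.49%. zig-3 also had an unadjusted p under 0.05 here. Both adjusted p values rose above 0.05 in the fit of these 2 groups alone (0.086 and 0.0907) and with library totals in place of TMM factors (0.142 and 0.106), where the median of all genes shifted by -0.18. That of zig-5 was 0.0737 without set-2 F1-25C replicate 1, and that of zig-7 0.143 without replicate 4.

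The genotypes were also compared at 20 °C. In set-2 F1-1DOA against F1-1DOA none of the members was called beside 2.72% of all genes. zig-3 and zig-7 had unadjusted p values under 0.05, beside 4750 of the 15306 genes tested. The log2 fold change of zig-7 there was 0.46 ± 0.17 (adjusted p = 0.0681). In set-2 F1-4DOA against F1-4DOA none was called beside 3.91% of genes, although all 8 members lay above 0 with a median of 0.22. zig-1 (0.27, adjusted p = 0.189) and zig-8 (0.41, adjusted p = 0.153) had unadjusted p values under 0.05, beside 3979 of the 15306 genes.

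zig-1, zig-2, zig-6 and zig-8 were not called in any comparison. zig-1 was the steadiest, with group means from 44.3 to 56.0 CPM over the 9 groups. zig-6 ran from 16.9 CPM in F1-25C to 22.8 in set-2 F1-1DOA. zig-2 was at 6.46 to 7.78 CPM in 1DOAx1DOA, below the 9.77 to 11.1 CPM of F1-1DOA (log2 fold change -0.56 ± 0.18, adjusted p = 0.065). zig-8 was at 2.54 to 3.94 CPM in 1DOAx1DOA, below the 4.42 to 5.08 CPM of F1-1DOA (-0.55 ± 0.19, adjusted p = 0.0879). Over the 19 comparisons planned, the 7 genes other than zig-3 gave 133 log2 fold changes, of which 1 was called and 4 had an adjusted p under 0.05. In the 14 of these comparisons without a called member, DESeq2 called a member in 1, the zig-3 of F1-4DOA.

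The outcross lines were compared to ask whether descent from set-2 mothers leaves a trace. None of the 8 genes was called in any of the 3 comparisons between lines. In MUT-des against WT-ctrl 0.176% of genes were called, and zig-3, with a log2 fold change of -0.50 ± 0.21, had an unadjusted p of 0.0249 and an adjusted p of 0.571. In WT-des against WT-ctrl 0.0126% were called and zig-3 was at -0.19 ± 0.19 (adjusted p = 0.993). In MUT-des against WT-des 0.12% were called and zig-3 was at -0.31 ± 0.20 (adjusted p = 0.827). No member had an unadjusted p under 0.05 in either of these WT-des comparisons.

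Between generations, the estimates of all 8 genes were above 0 for F5 against F3. Their median log2 difference was 0.33, against 0.01 over all genes. An unadjusted p under 0.05 was found for 6 of the 8, beside 4203 of the 15872 genes tested. None of the members passed the fold threshold, beside 2.11% of all genes called. By the adjusted p alone 2 of 8 passed, zig-3 (0.63 ± 0.16, adjusted p = 0.0212) and zig-4 (0.73 ± 0.21, adjusted p = 0.0378), beside 8.34% of all genes. Of the 12 tested molting genes 8 had an unadjusted p under 0.05, with a list median of 0.03. For the hypodermis list these were 4 of 6 and -0.54. The part of these lists in the zig values was not tested. F5 descends from F3, so generation and time of collection cannot be told apart. zig-3 was at 29.6, 30.2, 28.2 and 33.7 CPM in WT-ctrl F3 and at 36.01, 70.27 and 41.42 CPM in WT-ctrl F5, without overlap. In WT-des it was at 36.1, 21.9, 30.6 and 19.1 CPM in F3 and at 39.2, 46.2, 34.7 and 52.1 CPM in F5. In MUT-des it was at 31.2, 25.9 and 11.6 CPM in F3 and at 34.26, 27.06 and 36.98 CPM in F5. The latter 2 kinds of line overlapped between generations. The adjusted p of zig-3 was 0.06 without WT-ctrl F5 replicate 3, which held the highest value. That of zig-4 reached 0.05 or more in 12 of its 30 alternatives, 11 of which left out 1 library, and 0.0856 at most.

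**Figure D5:**
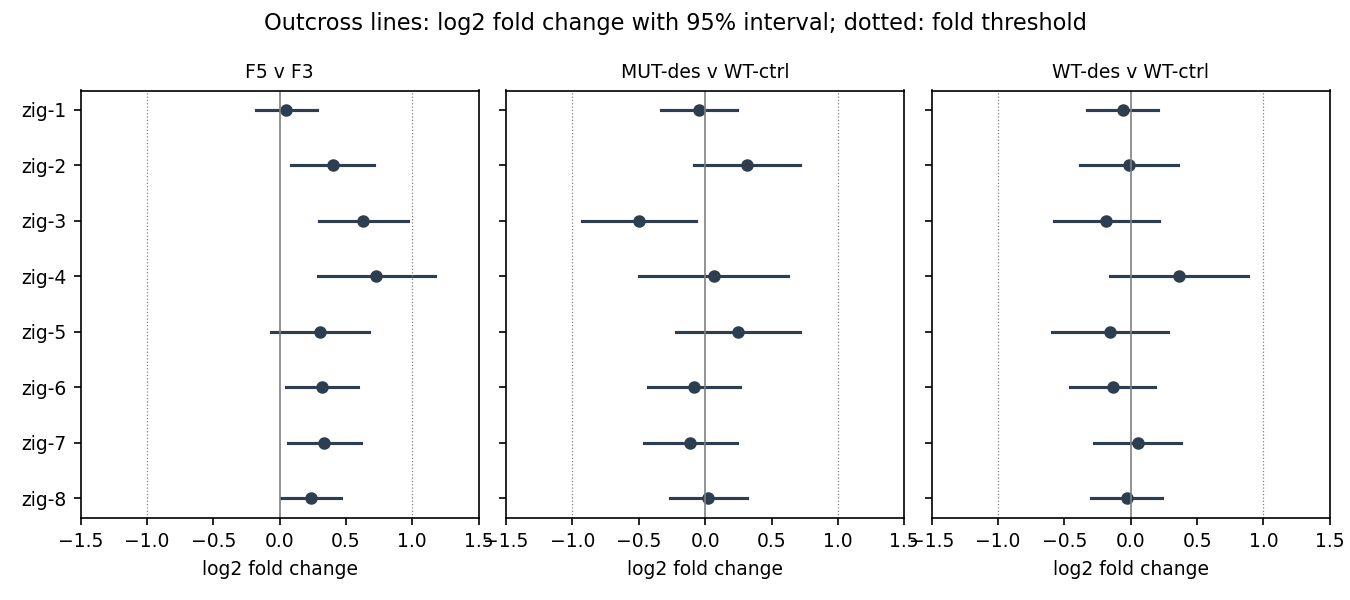
log2 fold change (point) and 95% interval (line) of each of the 8 genes in the outcross lines, for F5 against F3 and for MUT-des and WT-des against WT-ctrl, with dotted lines at the fold threshold. All 8 points lie above 0 in F5 against F3, from 0.05 for zig-1 to 0.73 for zig-4, and none reaches 1.

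The members also varied together between outcross libraries of the same group. Over the 21 libraries, with group means removed, Pearson's r of log2 CPM was above 0 for all 28 pairs of members, from 0.28 for zig-2 with zig-3 to 0.87 for zig-2 with zig-5. WT-des F5 replicate 2 held the highest value of its group for each member but zig-3, with 62.5 CPM of zig-1 and 86.7 CPM of zig-7. Over the 36 parental condition libraries 20 of the 28 pairs were above 0, from -0.26 for zig-5 with zig-7 to 0.70 for zig-1 with zig-6, and the adjacent zig-3 and zig-4 were at 0.01. These are descriptions of libraries whose genes share 1 scaling factor.

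Other genes of axon maintenance were read beside the zig genes. Of 14 tested genes of that list, 1 was called higher at 25 °C, beside 4.06% of all genes, while 13 were below 0. This was pxn-2, a peroxidasin of the basement membrane (1.27 ± 0.28, adjusted p = 0.00408). It also rose in F1-4DOA (1.49 ± 0.28, adjusted p = 0.00258), where 2.38% of all genes were called higher. In F1-back against F1-25C, 2 of the 14 were called lower beside 6.05% of all genes. They were pxn-2 (-1.17 ± 0.28, adjusted p = 0.00417) and dig-1, which encodes a giant adhesion protein of the basement membrane (-1.17 ± 0.41, adjusted p = 0.0418). These 2 alone were below 0 in that comparison, and the list's median was 0.36. In set-2 F1-1DOA the type IV collagen genes emb-9 (-1.05 ± 0.26, adjusted p = 0.013) and let-2 (-1.14 ± 0.29, adjusted p = 0.0148) were lower than in F1-1DOA, beside 1.01% of all genes. The summed muscle markers were at 8067 to 10320 CPM against 11110 to 12460 CPM without overlap, with a median log2 fold change of -0.63 and unc-89 called. Of the 8 tested muscle genes 6 had an unadjusted p under 0.05, beside 4750 of 15306 genes. The neuronal receptor list had a median of -0.65 and the LIM homeobox list one of -0.67 there, with none of their genes called. The part of these lists was not tested. In set-2 F1-25C, pxn-2 (-1.43 ± 0.28, adjusted p = 0.000933) and sax-7 (-1.25 ± 0.37, adjusted p = 0.0206) were lower than in F1-25C, beside 4.70% of all genes. dig-1 was lower in both kinds of cross-progeny, by -2.10 ± 0.43 in 1DOAx1DOA (adjusted p = 0.00418) and by -2.94 ± 0.45 in 1DOAx4DOA (adjusted p = 0.000113), beside 0.921% and 1.89% of all genes called lower. pxn-2 was lower in 1DOAx4DOA than in F1-4DOA (-1.20 ± 0.28, adjusted p = 0.00842). Its response to 25 °C was lower in set-2 than in wild type (interaction -1.59 ± 0.40, adjusted p = 0.023). In that interaction 1.95% of all genes were called lower, while the list had 2 of its 14 below 0 and a median of 0.35. The growth factor gene let-756 was higher in set-2 F1-4DOA than in set-2 F1-1DOA (1.05 ± 0.30, adjusted p = 0.0129), beside 1.61% of all genes. The list's median there was 0.74, with 2 of the 14 below 0. An unadjusted p under 0.05 was found for 10 of the 14, beside 5835 of 15306 genes. In F1-25C against F1-1DOA the list's median was -0.27, against 0.00 over all genes.

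Among 12 tested neuronal receptors and ligands with related domains, none was called at 25 °C, beside 4.99% of all genes. In F1-4DOA 8 of the 12 were below 0. ncam-1, the NCAM homologue, rose there (1.15 ± 0.26, adjusted p = 0.0092), beside 2.38% of all genes called higher. ncam-1 was lower in 1DOAx4DOA than in F1-4DOA (-1.01 ± 0.26, adjusted p = 0.0173), beside 1.89% of all genes. Its response to 25 °C was lower in set-2 (interaction -1.30 ± 0.37, adjusted p = 0.046), where 1.95% of all genes were called lower. Of the 12, 3 were lower in set-2 F1-25C than in F1-25C beside the same 4.70% of all genes: ncam-1 (-1.66 ± 0.27, adjusted p = 9.63e-05), rig-4 (-1.03 ± 0.26, adjusted p = 0.00751) and unc-40, the netrin receptor (-1.04 ± 0.29, adjusted p = 0.0123). The pan-neuronal list had a median of -0.50 in the same comparison, with sums of 297.1 to 463.3 CPM in set-2 F1-25C, and its part was not tested. Of 8 small oig genes with single or few immunoglobulin domains, oig-3 alone was called. It was lower in F1-back than in F1-25C (-1.17 ± 0.27, adjusted p = 0.00266), beside 6.05% of all genes. zig-9 and zig-10 were the further zig genes with entries. zig-10 was lower in 1DOAx1DOA than in F1-1DOA (-1.19 ± 0.28, adjusted p = 0.0146), beside 0.921% of all genes. Of 4 tested LIM homeobox genes, a family of which lim-6 acts in PVT, none was called at 25 °C in either genotype. The shares of all genes called were 4.99% in wild type and 2.97% in set-2. In set-2 F1-4DOA against set-2 F1-1DOA lim-4 was called higher (1.18 ± 0.35, adjusted p = 0.016), beside 1.61% of all genes. All 4 had an unadjusted p under 0.05, beside 5835 of 15306 genes, and the median was 0.80. The neuronal receptor list had a median of 0.83 and the pan-neuronal list one of 0.48 in that comparison, and their part was not tested.

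The genes called in the marker lists were few, with adjusted p values from 0.000171 to 0.0447 in edgeR. The hypodermal grd-10 was higher in F1-25C (2.20) and F1-4DOA (2.44) than in F1-1DOA, beside 4.06% and 2.38% of all genes called higher. In F1-25C 5 of the 6 tested hypodermal genes were below 0, with a list median of -0.52. In F1-4DOA 3 of the 6 were below 0 and the median was 0.04. grd-10 was lower in F1-back than in F1-25C (-3.26) and in F5 than in F3 (-2.64). In set-2 F1-25C grd-10 was lower than in set-2 F1-1DOA (-2.85) and F1-25C (-4.13). The list's median was 0.16, -0.54, -0.35 and 0.08 in these comparisons, in this order. The germline gene nos-2 was higher in F1-25C than in F1-1DOA (1.54). It was lower in F1-back than in F1-25C (-1.72), beside 6.05% of all genes called lower, and in set-2 F1-25C than in F1-25C (-1.30). In set-2 F1-4DOA nos-2 was lower than in set-2 F1-1DOA (-1.64) and F1-4DOA (-1.51). In F1-back against F1-25C nos-2 alone of the 7 tested germline genes was below 0, and the list's median was 0.47. That median was 0.06 in set-2 F1-4DOA against F1-4DOA, with 2 of the 7 below 0. cgh-1 was higher in 1DOAx1DOA than in F1-1DOA (1.38). In the interaction of set-2 with 25 °C, grd-10 (-5.06), nos-2 (-2.15) and the intestinal cpr-6 (1.25) were called. Of all genes 1.95% were called lower and 0.732% higher there. The hypodermis list had 2 of 6 below 0 and a median of 0.16. For the germline list these were 6 of 7 and -0.34, and for the intestinal list 2 of 8 and 0.25. In the interaction with maternal age nos-2 was called (-2.36), beside 1.13% of all genes called lower. There 6 of the 7 germline genes were below 0, with a median of -0.09. The intestinal metallothionein gene mtl-2 was lower in F1-back than in F1-1DOA (-2.42) and F1-25C (-1.80), and in 1DOAx1DOA than in F1-1DOA (-1.94). It was also lower in set-2 F1-4DOA than in set-2 F1-1DOA (-1.36), beside 4.37% of all genes called lower. There 1 of the 8 tested intestinal genes, mtl-2, was below 0, and the list's median was 0.29. Of the 13 tested genes of the molting list, mlt-8 (1.04), mlt-10 (1.58) and ptr-4 (1.41) were higher in F1-back than in F1-25C. In that comparison 2.18% of all genes were called higher and the list's median was 0.52. An unadjusted p under 0.05 was found for 7 of the 13, beside 4917 of 15306 genes. The part of this list in the zig-3 values was not tested. In set-2 F1-4DOA, the molting list's fbn-1 (2.23) and the male list's mab-3 (1.40) were higher than in set-2 F1-1DOA. In set-2 F1-25C the muscle genes unc-22 (-1.62) and unc-89 (-1.07) and the neuronal maco-1 (-1.42) were lower than in F1-25C. Of the 8 tested muscle genes 4 were below 0 there, with a median of -0.10. unc-89 was also lower in set-2 F1-1DOA than in F1-1DOA (-1.11).

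The genes whose levels were most like that of zig-3 over the 36 parental condition libraries were found by Pearson's r of log2 CPM. They were fat-7, a stearoyl-CoA desaturase gene (r = 0.87), clec-247, a C-type lectin gene (0.84), pqn-83 (0.80), the debranching enzyme gene dbr-1 (0.80) and a transcript entry that the RefSeq table for WBcel235 assigns to hrg-7 (0.80). None of these was another zig gene. For zig-1 the closest 3 were vhl-1, the von Hippel-Lindau homologue (0.83), rer-1 (0.82) and C35C5.3 (0.80). For zig-2 they were the insulin-like gene ins-35 (0.71), a gene known only by a sequence name (0.71) and the guanylyl cyclase gene gcy-13 (0.68), and for zig-4 C53A3.2 (0.77), the globin gene glb-10 (0.77) and T07F12.4 (0.73). For zig-5 they were Y37D8A.5 (0.74), Y57A10A.2 (0.70) and F54F7.6 (0.69), and for zig-6 F57B10.5, K12H4.4 and F57B9.1 (0.79 each). For zig-7 they were the nuclear receptor gene nhr-42 (0.82), F09F7.6 (0.81) and F53A9.7 (0.80). For zig-8 they were C02F5.14 (0.84), Y45F10A.3 (0.83) and isl-1 (0.82). These values describe libraries that share conditions and scaling.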

How the data were processed

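The deposited files held raw counts per gene for 58 libraries. Per the authors' methods and processing notes, single-end reads were trimmed (Trimmomatic), aligned (RNA STAR) and counted by gene (HTSeq) on WS220 (ce10), and the count files were deposited without normalization. The kit does not retain strand. Counts were fitted with edgeR 4.0.16 in R 4.3.3 (TMM factors, filterByExpr by group, robust quasi-likelihood test), in 1 fit for the 36 parental condition libraries (15306 genes) and 1 for 21 outcross libraries (15872 genes). Errors are SE = |log2 fold change| / sqrt(F). DESeq2 1.42.0, other scalings and filters, fewer groups, a replicate block and leaving out each library were alternatives. The tests were checked on simulated counts. Total counts were 1271186 to 31543107.

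The genes and lists were chosen with earlier results of these data known. All 8 members were named, and of each other list up to 4 called genes with the smallest adjusted p per comparison. The 5 genes most like zig-3, and the 3 most like each other member, were ranked by r. Names and exonic lengths came from WBcel235, not from the WS220 (ce10) build of the counts. Strand, gene order and overlaps were read from the WBcel235 gene coordinates, which are not printed. Nothing states that equally numbered replicates share a batch.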

Additional observations from a re-analysis of the deposited data

Results flagged for a closer look

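Of 96 combinations of a member and a group of 4 libraries, 5 held a library far from its group by Dixon's criterion, which chance alone gives in about 1 of 20. zig-2 was at 15.1 CPM in F1-25C replicate 2, while the other 3 libraries were at 10.1 to 10.9. zig-7 was at 33.7 CPM in F1-25C replicate 1, below 41.7 to 42.9. In F1-1DOA replicate 2, zig-5 was at 3.43 CPM, below 4.15 to 4.30, and zig-8 at 4.42 CPM, below 5.004 to 5.082. zig-5 was at 5.86 CPM in set-2 F1-4DOA replicate 1, above 4.52 to 4.73.

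The maternal age change of zig-3 differed between cross-progeny and self-progeny by 1.97 on the log2 scale (interaction term in edgeR, adjusted p = 0.0163), a test chosen after the values were seen. Over its 24 alternatives it ran from 1.83 to 2.38 with adjusted p values from 0.000291 to 0.0396.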

How the results depend on the processing

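Across 20 comparisons and 379 alternatives, the number of members called was unchanged in 360. The calls of zig-3 at 25 °C, in F1-back and set-2 against 25 °C, in F1-25C against F1-4DOA and in 1DOAx1DOA held in all 16 alternatives each, with adjusted p values of 0.037 at most. In F1-4DOA against F1-1DOA, 1 member (zig-3) was called in place of 0 with RLE factors, library totals, no low-count filter, a mean of at least 50 counts, DESeq2 or no fold threshold, and 0 to 1 when 1 library was left out. It stayed at 0 with the replicate block (-0.98, adjusted p = 0.0242), in the fit of these 2 groups alone (-0.97, adjusted p = 0.175) and without F1-4DOA replicate 4 (-0.86, adjusted p = 0.0399). In 1DOAx1DOA against F1-1DOA the count was 1 in place of 2 with no low-count filter (zig-4, adjusted p = 0.0525), and 1 to 2 when 1 library was left out. Without a fold threshold, 2 members passed in set-2 F1-25C against F1-25C and 2 in F5 against F3. The interaction of set-2 with maternal age had 0 to 1 called when 1 library was left out. Differences of zig-3 near 0 changed sign when 1 library was left out. F1-back against F1-1DOA ran from -0.083 to 0.26 (-0.04 without F1-1DOA replicate 1, -0.083 without F1-back replicate 3). The interaction of set-2 with 25 °C ran from -0.17 to 0.31, and was 0.14 and 0.01 without F1-1DOA replicates 1 and 2, 0.31 without F1-25C replicate 3, 0.02 and 0.13 without set-2 F1-1DOA replicates 3 and 4, and 0.03 and 0.04 without set-2 F1-25C replicates 2 and 3. The causes were not tested. Library totals moved the median of all genes beyond 0.1 in 5 comparisons, each with a 25 °C group, from -0.20 to 0.14.

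With a replicate block the counts of called members did not change, for example 1 in F1-25C against F1-1DOA (zig-3, -2.69, adjusted p = 7.99e-08) and 2 in 1DOAx1DOA against F1-1DOA. Same-numbered libraries deviated together in all pairs, with r above 0.1, for 1 of 36 pairs of groups in the parental conditions and 0 of 15 in the outcross lines, so the numbers were not read as pairing. Adding WT-ctrl F5 replicate 2 changed none of the counts. zig-4, zig-5 and zig-8, at the lowest counts, limit how small a change could be called.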
